A study of Homo sapiens with 7 samples.

Results

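The 6 human entries hsa-miR-619-5p, hsa-miR-1273a, hsa-miR-1273g-3p, hsa-miR-5095, hsa-miR-1285-3p and hsa-miR-1254, written without hsa- from here on, carry microRNA names but are known as sequences that lie in Alu repeats. They were chosen by name among the 480 mature microRNA names of the table, and all 6 were found. miR-1285-3p and miR-1254 had 2 hairpin rows each, and the row with the higher summed level was used. The cells were A375, a line from human melanoma. The question was which microRNAs are attached to the 3' UTR of BRAF-X1, a transcript isoform of the kinase gene BRAF. Cells were taken 24 h after seeding and crosslinked with 1% formaldehyde for 10 min, and the target mRNA was pulled down with probes by the method named miR-CATCHv2.0 before the small RNA was sequenced. The captures compared were 3 with the probe set ODD, 3 with the probe set EVEN, and 1 with scrambled probes. ODD and EVEN together are called X1 probes here. A375 is 1 cell line. The captures of a probe set are described as independent, but not as coming from separate cultures, so the p-values measure the spread between these libraries, which may be technical.

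Alu elements are short interspersed repeats of primate genomes that descend from the RNA of the signal recognition particle. Copies sit in introns and in the 3' UTRs of many genes, so a short piece of an Alu-containing transcript can carry the same letters as an annotated microRNA. Several entries of this kind, miR-619-5p, miR-5095, miR-5096 and the miR-1273 group among them, have been noted for predicted sites in very many human mRNAs, since those mRNAs hold Alu copies. Reads of such entries can therefore come from a hairpin or from another transcript, and the table does not separate the sources.

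The RefSeq microRNA table (GRCh38.p14) held the sequence of 1 of the 6 members, miR-1285-3p, and of 8 of the 17 other Alu-like names that had a row. It is shown with the 3 most read of those 8. A listed name that had no row, miR-1273c, is shown as well. Its sequence is the closest to miR-1285-3p among the listed names whose sequence RefSeq held. Capitals mark the seed, bases 2 to 8 from the 5′ end.
miR-1285-3p: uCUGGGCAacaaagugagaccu
miR-1273c: gGCGACAAaacgagacccuguc
miR-5585-3p: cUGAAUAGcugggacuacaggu
miR-1972: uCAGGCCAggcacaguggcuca
miR-1303: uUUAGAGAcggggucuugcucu

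miR-1285-3p has 22 bases and lies at chr2:70252933-70252954 on the minus strand and again at chr7:92204027-92204048 on the minus strand (GRCh38.p14). The chromosome 7 copy, MIR1285-1, lies within the span of KRIT1, and no gene of the RefSeq table spans the chromosome 2 copy, MIR1285-2. The other printed sequences lie at chr6:154853369-154853390 on the plus strand (miR-1273c), chr1:32086986-32087007 on the plus strand within TMEM39B (miR-5585-3p) and chr5:154685827-154685848 on the plus strand within LARP1 (miR-1303). miR-1972 lies at chr16:15010329-15010350 on the minus strand within PDXDC1. Its other copy is at chr16:70030393-70030414 on the plus strand, within PDXDC2P and PDXDC2P-NPIPB14P. MIR619, the hairpin of miR-619-5p, lies within the span of SSH1, which encodes a phosphatase of cofilin. Without gaps, 14 of 18 overlapping bases were the same in miR-1285-3p and miR-1273c, although their seeds differ. The same number of identical bases was found for 3 names that are not on the Alu-like list: miR-1298-3p (over 19 bases, with a shared run of 10), miR-423-5p and miR-4667-5p (over 22 bases each). The seed of miR-1285-3p, CUGGGCA, was shared by 3 other mature microRNAs of the RefSeq table, miR-6860, miR-5189-5p and miR-3187-5p, and none of these had a row. Among the printed sequences no 2 have the same seed. The sequence of miR-1285-3p was also searched on both strands in 35116 RefSeq promoter windows, from 250 bases before to 50 bases after each gene start. No window held it with up to 3 mismatches, and 2 windows (0.0057%) held it with 4, a limit added after the data were seen. Among the 406 names searched, 309 had no window with up to 3 mismatches. For the 329 names of 21 to 23 bases the median with up to 4 mismatches was 1 window. Of these names 141, miR-1285-3p included, had at least as many windows as miR-1285-3p. With up to 4 mismatches, the searched Alu-like names of 22 or 23 bases had 1 (miR-1972, miR-3929) to 6 windows (miR-1303, miR-1273h-3p). The search therefore does not tell repeat-derived names from others. The repeat origin of the 6 members was taken from background knowledge.

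Each library held 4049 to 35508 reads over all rows of the table, and 1 read was worth 28.2 to 247 RPM (reads per 1000000 reads of the table). The scrambled library had 4647 reads, so 1 read there is 215 RPM. Of the 2 melanocyte-lineage names listed, 1 had a row: miR-204-5p, at 1352 to 2937 RPM with X1 probes and 861 RPM with scrambled probes. The other, miR-211-5p, had no row and could not be analysed, so the lineage check rests on 1 name. Summed over their lists, markers of other cells stood at 0 to 629 RPM (blood, 5 of 7 names with a row), 108 to 494 RPM (epithelium, 3 of 6), 92.4 to 494 RPM (neurons, 2 of 3) and 84.5 to 741 RPM (muscle, 2 of 4) with X1 probes. The same sums in the scrambled library were 215, 0, 1291 and 646 RPM.

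The members formed a small and uneven group led by miR-619-5p. Together they took 400 reads from X1-probe captures and 30 from the scrambled capture. miR-619-5p supplied 303 of these 430 reads, miR-1273g-3p 67, miR-1273a 30, miR-1285-3p 16, miR-5095 9 and miR-1254 5. By mean RPM over the 7 libraries miR-619-5p ranked 33 of 480 names, miR-1273g-3p 72, miR-1273a 98, miR-1285-3p 144, miR-5095 183 and miR-1254 210. miR-619-5p and miR-1273g-3p had reads in all 7 libraries, miR-1273a in 6, miR-5095 and miR-1285-3p in 5 each and miR-1254 in 4. miR-619-5p can be described by level. miR-1273g-3p had 3 to 27 reads in each library, so its level is rough, and the last 3 members had 0 to 8.

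**Figure D1:**
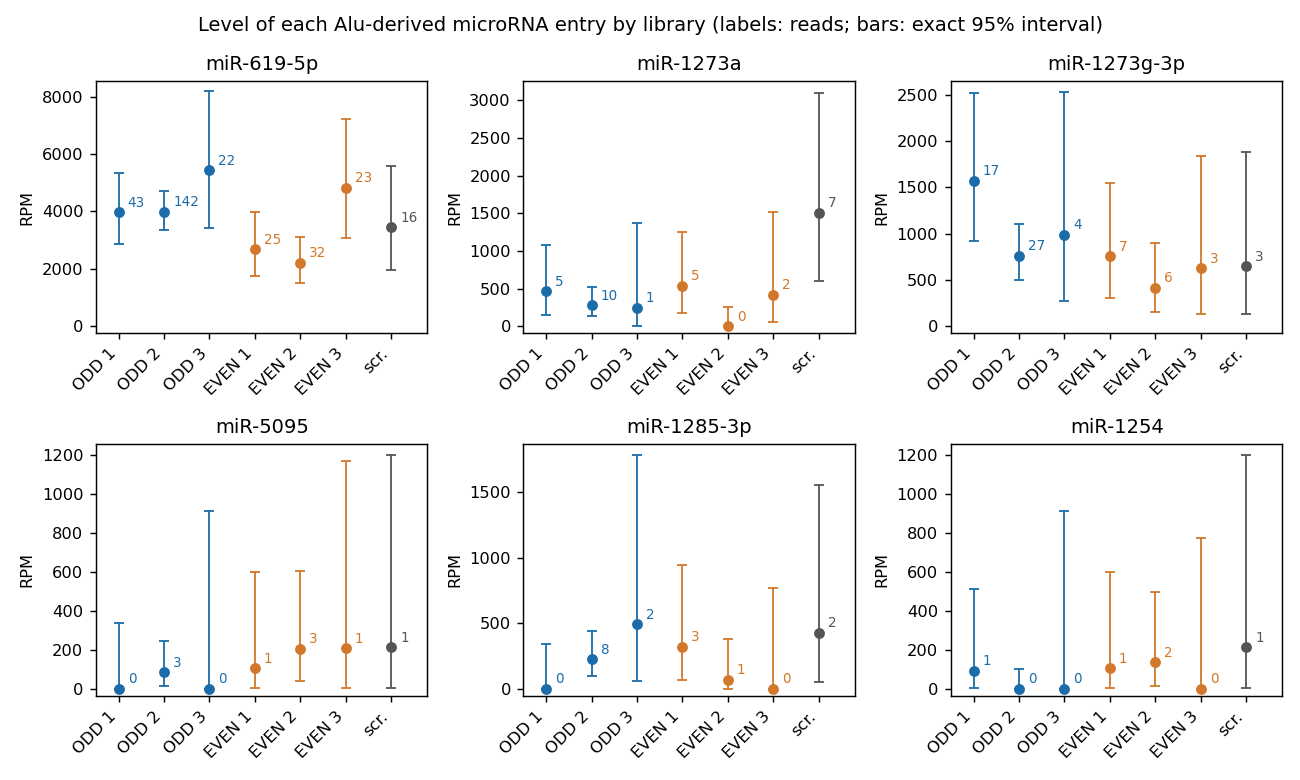
Each panel plots the RPM of 1 member (y axis) in the 7 libraries (x axis; blue ODD, orange EVEN, grey scr., the scrambled library), with the number of reads beside each point and the exact 95% Clopper-Pearson interval as a bar. miR-619-5p lies between 2208 and 5433 RPM in all libraries, whereas miR-1273a is highest in the scrambled library at 1506 RPM and the intervals of miR-5095, miR-1285-3p and miR-1254 are wide.

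As a share of all reads the 6 members made up 0.610% of ODD replicate 1, 0.535% of ODD replicate 2 and 0.716% of ODD replicate 3. EVEN replicates 1 to 3 gave 0.452%, 0.304% and 0.608%. The scrambled library gave 0.646% (exact 95% interval 0.436 to 0.920%). All such intervals are exact (Clopper-Pearson), were computed from the reads and cover counting error only, because PCR copies cannot be told from separate molecules without molecular identifiers. The lowest value, in EVEN replicate 2, lies below every other library, and its interval (0.221 to 0.407%) overlaps that of EVEN replicate 1 (0.326 to 0.610%) and no other. In RPM the sum averaged 6204 ± 910 for ODD, 4547 ± 1524 for EVEN (SD, n = 3 each) and stood at 6456 for the scrambled library. The ODD and EVEN libraries overlapped, and the scrambled value lay within the range of the X1-probe libraries, 3036 to 7162 RPM. ODD and EVEN replicates of the same number also share a number in their descriptions. In each such pair the sum was higher with ODD. Within each probe set the sum was highest in the shallowest library (replicate 3, with 4049 and 4767 reads) and lowest in the deepest (replicate 2, with 35508 and 14492 reads). The part of depth in the differences between libraries was not tested.

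**Figure D2:**
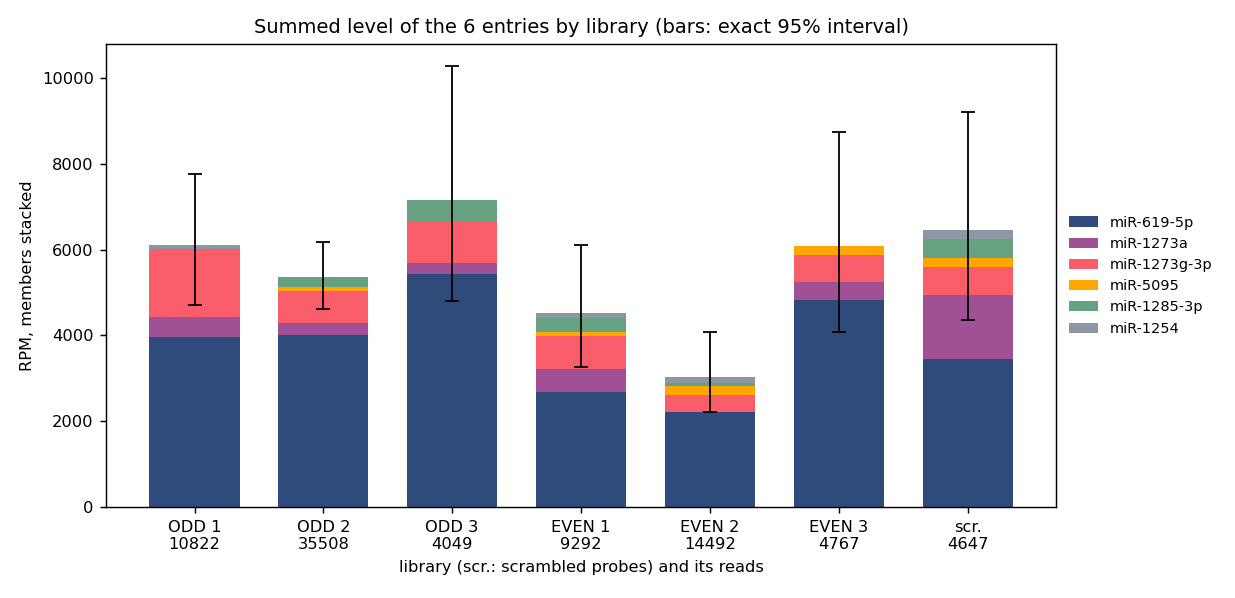
Stacked bars give the RPM of the 6 members (y axis) in each library (x axis, with the reads of the library under its name), and the black lines are exact 95% intervals of the sum. miR-619-5p takes most of every bar, from 53.3% of the member reads in the scrambled library to 79.3% in EVEN replicate 3.

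The main comparison sets X1 probes against the scrambled control. No member was higher or lower by this test: 0 of the 6 tested members passed limma's test at an adjusted p of 0.05, against 2 of 242 tested names in all (0.826%). limma was fitted to log2(RPM + 10) over the 242 names that reached 10 RPM in at least 3 libraries, with Benjamini-Hochberg adjustment over all 242. All 6 members passed this filter, and none had an unadjusted p under 0.05. The scrambled group is 1 library, so its spread was taken to be that of the other groups. The members' median log2 difference was -2.15, beside 0.096 over all tested names, with 2 members above 0 and 4 below. For miR-5095, miR-1285-3p and miR-1254 these differences follow the pseudocount, because libraries with 0 reads stand at log2(10) while a single read is worth more than 10 RPM.

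miR-619-5p was the best measured member. ODD replicates 1 to 3 gave it 43, 142 and 22 reads, which is 3973, 3999 and 5433 RPM. In EVEN replicates 1 to 3 it had 25, 32 and 23 reads, 2690, 2208 and 4825 RPM. The scrambled library had 16 reads, 3443 RPM (exact 95% interval 1969 to 5585). That value sits inside the X1-probe range, with 4 X1-probe libraries above it and 2, EVEN replicates 1 and 2, below. The mean with X1 probes was 3855 ± 1228 RPM (SD, n = 6), 1.12-fold the scrambled value. The log2 difference was 0.095 (limma, 95% interval -0.77 to 0.96, adjusted p = 0.908), and the sign turned without EVEN replicate 3 (-0.069). An exact permutation test of 6 libraries against 1 gave p = 0.857, two-sided, where the smallest possible value is 0.286.

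The spread of miR-619-5p over the 6 X1-probe libraries, a coefficient of variation of 31.8%, was above the 18.1% that counting error alone would give at these depths. Over the 95 names with at least 500 RPM the median coefficient was 26.9%. The 35 names within 2-fold of its level, itself included, ran from 14.5% to 42.8% with a median of 22.9%. The names whose profile over the 7 libraries lay nearest to it were miR-222-3p, miR-191-5p and miR-1246, with root mean square differences of 0.26, 0.31 and 0.32 between centred log2(RPM + 10) values, against a median of 0.58 over the 95 names compared. All of these share the 7 libraries and their depths.

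miR-1273g-3p, the 3′ arm entry of MIR1273G, showed the same lack of separation from the scrambled library. Its RPM was 1571, 760 and 988 in ODD replicates 1 to 3 (17, 27 and 4 reads) and 753, 414 and 629 in EVEN replicates 1 to 3 (7, 6 and 3 reads). The scrambled library had 3 reads, 646 RPM (exact 95% interval 133 to 1885). All 3 ODD libraries and EVEN replicate 1 lay above that value. The log2 difference was 0.28 (limma, SE 0.75, adjusted p = 0.836). The 3 scrambled reads do not allow a narrower statement. Over the 6 X1-probe libraries the coefficient of variation of miR-1273g-3p was 46.8%, where counting error alone would give 38.4%.

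miR-1273a stood at its highest in the scrambled library. ODD replicates 1 to 3 gave 5, 10 and 1 reads, or 462, 282 and 247 RPM. EVEN replicates 1 to 3 gave 5, 0 and 2 reads, or 538, 0 and 420 RPM. The scrambled library had 7 reads, 1506 RPM (exact 95% interval 606 to 3101). All 6 X1-probe libraries lay below it, with a mean of 325 ± 193 RPM (SD, n = 6), 0.216-fold the scrambled value. Pooled over the X1-probe libraries, 23 of 78930 reads gave 291 RPM with an interval of 185 to 437, which does not meet the scrambled interval. Both intervals cover counting error only and leave out the spread between captures. Taken singly, the intervals of the 2 deepest libraries, ODD replicate 2 (up to 518 RPM) and EVEN replicate 2 (up to 255 RPM), lay below the scrambled interval, while those of the other 4 overlapped it.

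For miR-1273a limma gave a log2 difference of -2.86 with an SE of 1.61 (interval -6.14 to 0.42, adjusted p = 0.668, lower in 6 of 6 libraries). The exact permutation test gave p = 0.286, the smallest possible. Over 19 other settings the difference ran from -3.43 to -1.70 and the adjusted p by limma from 0.106 to 0.769, so the direction held in each of them and the call was made in none. The unadjusted p was under 0.05 in 4 of these settings. The lowest adjusted p came from limma voom on the recovered reads, an alternative added after seeing the data. The library with 0 reads, EVEN replicate 2, where the floor of 3 reads is 207 RPM, lowers the X1-probe mean on this scale, and without it the difference was -1.93 (limma, adjusted p = 0.547). In the same scrambled library the summed neuronal markers also stood highest, at 1291 RPM against 92.4 to 494 RPM with X1 probes. Those 1291 RPM were 6 reads of miR-9-5p alone. The summed blood, epithelial and muscle markers and miR-204-5p did not stand highest there (215, 0, 646 and 861 RPM). Among all tested names 22.7% had all 6 X1-probe libraries below the scrambled one. Whether the scrambled values of miR-9-5p and miR-1273a are linked was not tested.

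The remaining 3 members were close to the limit of 1 read. miR-5095 was read 0, 3 and 0 times in the ODD replicates 1 to 3, 1, 3 and 1 times in the EVEN ones, and 1 time in the scrambled capture. miR-1285-3p, reported to act on the mRNA of the tumour suppressor p53, had 0, 8 and 2 reads with ODD probes, 3, 1 and 0 with EVEN probes, and 2 with scrambled probes. miR-1254, studied as a serum marker of lung cancer, had 1, 0 and 0 reads with ODD probes, 1, 2 and 0 with EVEN probes, and 1 with scrambled probes. The exact 95% interval of the single scrambled read of miR-5095 and of miR-1254 spans 5.45 to 1198 RPM. The log2 differences of -1.88, -2.42 and -2.69 for miR-5095, miR-1285-3p and miR-1254 had 95% intervals that together spanned -7.66 to 3.05 (limma, adjusted p = 0.679, 0.673 and 0.673). A difference of any of the 3 was not detectable at this depth.

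Counted by position, 3 of the 6 members, miR-1273a, miR-5095 and miR-1254, had all 6 X1-probe libraries below the scrambled one, where 22.7% of all tested names did. For miR-5095 and miR-1254 this rests on 1 scrambled read. No member had all 6 above it, where 11.2% of tested names did.

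**Figure D3:**
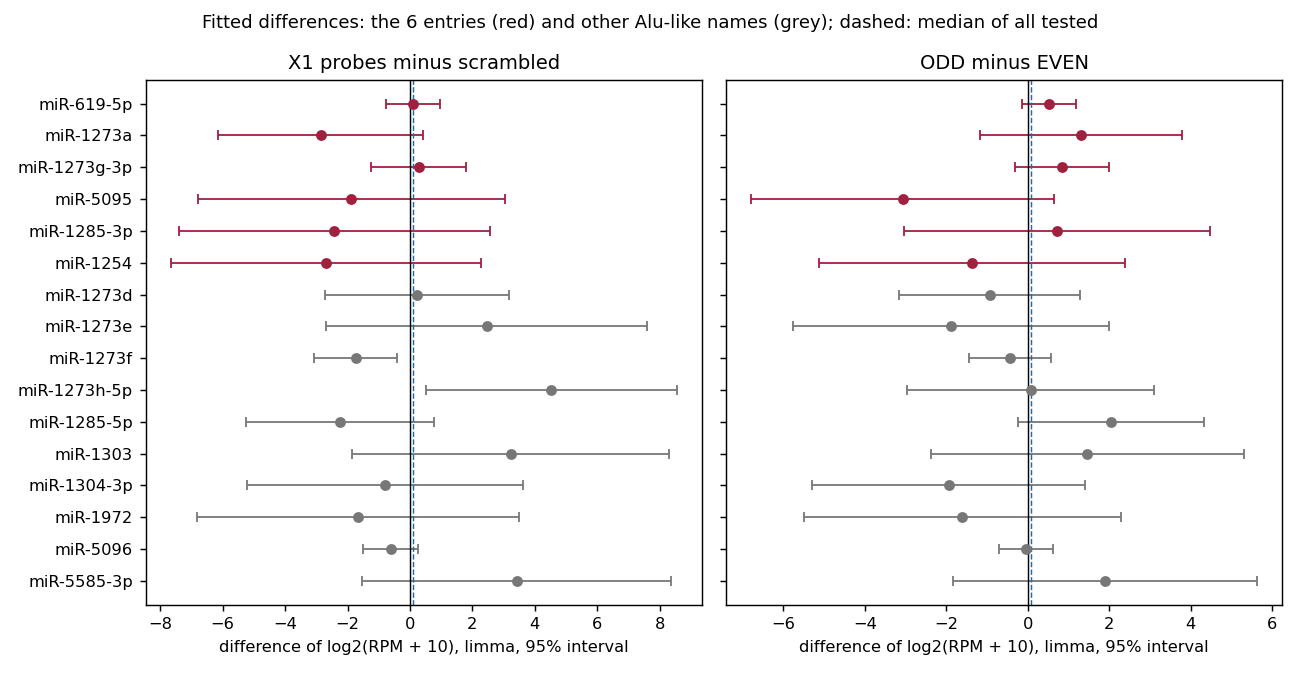
The x axes give the limma difference of log2(RPM + 10) with its 95% interval, for X1 probes minus scrambled (left) and ODD minus EVEN (right); red points are the 6 members, grey points the 10 tested Alu-like names outside the set, and the dashed line is the median of all 242 tested names. On the left miR-619-5p sits at 0.095 and miR-1273a at -2.86, and every member's interval crosses 0 in both panels.

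The ODD and EVEN probe sets are directed at the same transcript and were compared with each other. Of the 6 members, 0 passed, against 1 of 242 tested names (0.413%), and none had an unadjusted p under 0.05 in the fit. The members' median log2 difference, ODD minus EVEN, was 0.63, beside 0.072 over all tested names, with 4 members above 0 and 2 below.

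miR-619-5p averaged 4469 ± 836 RPM for ODD and 3241 ± 1393 RPM for EVEN (SD, n = 3 each). EVEN replicate 3 reached 4825 RPM, above ODD replicates 1 and 2, so the groups overlapped. Between replicates of the same number ODD was the higher each time. The values were 3973 against 2690, 3999 against 2208 and 5433 against 4825 RPM. By limma ODD exceeded EVEN by 0.53 on the log2 scale, with an SE of 0.32 (interval -0.13 to 1.19, adjusted p = 0.909, exact two-sided permutation p = 0.3 with 3 against 3). Without EVEN replicate 3 it was 0.86 (limma, unadjusted p = 0.0091, adjusted p = 0.735), a larger difference that did not pass either. With the number in the descriptions as a block it stayed at 0.53, with an SE of 0.21 (limma, interval 0.0034 to 1.05). This did not pass either (limma, unadjusted p = 0.049, adjusted p = 0.795). The reads pooled within each probe set gave 4109 RPM for ODD (exact 95% interval 3569 to 4707) and 2802 RPM for EVEN (2222 to 3486), an account of counting error that leaves out the spread between captures.

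miR-1273g-3p and miR-5095 were the 2 of 6 members with no overlap between the probe sets, in opposite directions, and 7.02% of all tested names had none. miR-1273g-3p was higher in all ODD libraries, with 1106 ± 418 against 599 ± 172 RPM (SD, n = 3 each), 1.85-fold. The lowest ODD value, 760 RPM, and the highest EVEN value, 753 RPM, differ by less than what 1 read is worth in any library. By limma this was 0.85 on the log2 scale with an SE of 0.57 (interval -0.30 to 2.00, adjusted p = 0.979). Among all tested names 3.72% lay higher with ODD probes without overlap. The exact permutation test gave p = 0.1, the smallest that 3 against 3 allows. The direction held in each of 20 other settings, with log2 differences from 0.57 to 1.09 and adjusted p from 0.603 to 0.998 by limma.

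miR-5095 was lower in all ODD libraries, at 0, 84.5 and 0 RPM against 108, 207 and 210 RPM with EVEN probes. These are 3 reads against 5. The 2 ODD libraries without a read allow up to 277 RPM (replicate 1) and 741 RPM (replicate 3) at a floor of 3 reads, above every EVEN value. The log2 difference of -3.07 is set by the pseudocount (limma, 95% interval -6.79 to 0.65, adjusted p = 0.909), and shrank to -0.62 with a pseudocount of 250 RPM. Names lower in all ODD libraries made up 3.31% of those tested. No difference in miR-5095 between the probe sets was detectable at this depth.

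miR-1273a, miR-1285-3p and miR-1254 overlapped between the probe sets. miR-1273a averaged 330.2 ± 115.5 RPM for ODD and 319 ± 283 RPM for EVEN (SD, n = 3 each), and its log2 difference of 1.30 turned to -0.56 without EVEN replicate 2, the library with 0 reads. miR-1285-3p had 240 ± 247 against 131 ± 170 RPM and miR-1254 30.8 ± 53.3 against 81.9 ± 72.5 RPM (SD, n = 3 each). Adjusted p was 0.979, 0.981 and 0.979 by limma for miR-1273a, miR-1285-3p and miR-1254. The values of these 3 do not order the probe sets.

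Other names known as Alu-like were taken from a list of 24, of which 17 had a row and 10 were tested. None of the 10 passed against scrambled or between ODD and EVEN. Their median log2 difference was -0.20 for X1 probes against scrambled, with 5 above 0 and 5 below, and -0.24 for ODD against EVEN, with 4 above and 6 below. Summed, the 17 names reached 5803 ± 956 RPM over the X1-probe libraries (SD, n = 6) and 9253 RPM in the scrambled library, above all 6 X1-probe libraries, which ran from 4450 to 7342 RPM. The sum of the 5 members other than miR-619-5p had the same order, 1520 ± 465 RPM (SD, n = 6) against 3013 RPM, with 6 of 6 X1-probe libraries below. These sums were formed with the values known and were not tested.

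miR-5096, miR-1273f and miR-1285-5p carried most of that level. miR-5096 had 2957, 2056 and 2964 RPM in ODD replicates 1 to 3, 2475, 2553 and 3147 RPM in EVEN replicates 1 to 3, and 4089 RPM, 19 reads, in the scrambled library. Its scrambled value lay above all 6 X1-probe values, with a log2 difference of -0.62 (limma, 95% interval -1.50 to 0.26, adjusted p = 0.673). miR-1273f had 1294, 873 and 494 RPM with ODD probes, 753, 966 and 1888 RPM with EVEN probes, and 3228 RPM, 15 reads, with scrambled probes. By limma this was -1.74 on the log2 scale with an SE of 0.65 (interval -3.07 to -0.42, unadjusted p = 0.0115, adjusted p = 0.310, lower in 6 of 6 libraries). miR-1285-5p, the other arm of the hairpin family of miR-1285-3p, had 462, 366 and 988 RPM with ODD probes, 430, 552 and 0 RPM with EVEN probes, and 1291 RPM, 6 reads, with scrambled probes. These 3 were the names of the 10 with all X1-probe libraries below the scrambled one, and the 22.7% of all tested names stands beside that count.

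**Figure D4:**
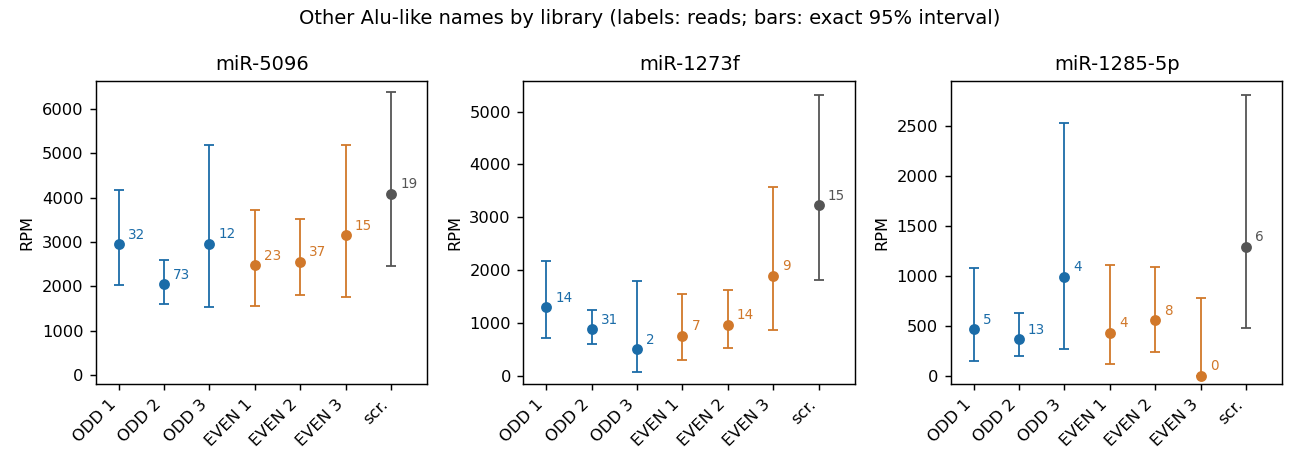
Each panel plots the RPM (y axis) of 1 Alu-like name outside the set in the 7 libraries (x axis; blue ODD, orange EVEN, grey scr., the scrambled library), with reads beside the points and exact 95% intervals as bars. The scrambled library is highest in all 3 panels, at 4089, 3228 and 1291 RPM, and its interval overlaps those of all 6 X1-probe libraries for miR-5096 and miR-1285-5p and of 2 for miR-1273f.

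The other 7 tested names were miR-1273d, miR-1273e, miR-1273h-5p, miR-1303, miR-1304-3p, miR-1972 and miR-5585-3p, with 9 to 23 reads each over the 7 libraries. miR-1273h-5p had 18 reads with X1 probes and 0 with scrambled probes (limma, unadjusted p = 0.0285, adjusted p = 0.431), and its mean of 270 RPM with X1 probes is below 646 RPM, the worth of 3 scrambled reads. A fold is therefore left out. The 7 untested names, miR-1268a, miR-1268b, miR-1273g-5p, miR-1273h-3p, miR-1304-5p, miR-3929 and miR-4419b, had 1 to 5 reads each.

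Hairpins of another repeat class were set beside the members. miR-151a-3p, miR-151a-5p, miR-28-3p and miR-28-5p derive from LINE-2 elements, older repeats whose hairpins are cut as ordinary microRNAs. miR-151a-3p averaged 4726 ± 1511 RPM over X1-probe libraries (SD, n = 6) beside 4734 RPM in the scrambled one, and miR-151a-5p 4344 ± 845 RPM (SD, n = 6) and 4734 RPM. miR-28-3p had 1978 ± 735 RPM (SD, n = 6) and 2582 RPM, and miR-28-5p 7 reads with X1 probes in 5 libraries and 0 with scrambled probes. None of the 4 had all 6 X1-probe libraries above or below the scrambled one. None passed, and their median log2 difference for X1 probes against scrambled was -0.11. Whether the 2 repeat classes differ from each other was not tested.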

How the data were processed

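Small RNA libraries of 7 captures were analysed from the table the authors deposited, which holds RPM (reads per 1000000 reads) for 498 rows, each a mature microRNA on a hairpin. The tools named in the submitters' processing notes are CASAVA 1.8 and cutadapt 1.2.1. The aligner and genome build were not given in the sources used here. Each deposited column sums to 1000000 RPM, and 100.0% of values are whole multiples of 1 read (tolerance 1e-06 reads), which gave reads and depths. RPM is relative to all microRNA reads of a library, so a few abundant names can move the rest.

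The row with the highest summed RPM was kept for names with several rows. limma 3.58.1 (R 4.3.3; lmFit, eBayes with trend, Benjamini-Hochberg, 0.05) was fitted to log2(RPM + 10) for names with at least 10 RPM in 3 libraries, over ODD, EVEN and scrambled groups. Simulated data with known changes were also run through this fit, and their outcome is not given here. Exact permutation tests and Clopper-Pearson intervals used scipy 1.17.1. ODD and EVEN captures share the numbers 9, 10 and 12 in their descriptions. Deviations from the group means correlated by -0.044, 0.072 and 0.019 between captures of the same number. With few reads for most names, these values cannot decide whether the captures were paired. The main fit left the numbers out, and another setting used them as a block. Named were all members, the 2 comparison lists of repeat-derived names and the 3 nearest profiles. The members and lists were chosen with earlier results of these data known.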

Additional observations from a re-analysis of the deposited data

Results flagged for a closer look

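No member had a library standing apart from the other X1-probe libraries by Dixon's test, which looks at the gap between the most extreme library and its neighbour as a share of the whole range. Among the 21 names and sums checked, 2 Alu-like names outside the set did. miR-1273h-5p reached 646 RPM (6 reads) in EVEN replicate 1, with a gap of 0.639 of the range, and miR-1972 reached 839 RPM in EVEN replicate 3, with a gap of 0.744, both above Dixon's limit for 6 libraries. By chance about 5% of sets are marked in this way. Both rest on few reads.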

How the results depend on the processing

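No member passed in any of 19 other settings against scrambled or 20 between ODD and EVEN (lowest adjusted p by limma 0.106 and 0.603); an unadjusted p under 0.05 occurred in 4 of 114 and 5 of 120 member values. The sign turned for miR-619-5p against scrambled without EVEN replicate 3 (-0.069) and without both replicates 3 (-0.14, chosen after seeing the data). Between ODD and EVEN it turned for miR-1273a without EVEN replicate 2 (-0.56) and for miR-1285-3p without ODD replicate 3 (-0.40), EVEN replicate 3 (-0.62) or both (-1.74). Leaving out 1 library, these ran from -0.069 to 0.21 for miR-619-5p, from -0.56 to 2.32 for miR-1273a and from -0.62 to 2.43 for miR-1285-3p, and miR-1273a stood at 2.33 without both replicates 3. The cause was not tested. Over all tested names the count against scrambled was 2, and 0 to 12 elsewhere: 12 with no filter, 1 with quantile scaling or voom, 0 with a pseudocount of 250 RPM, with the replicate block or without EVEN replicate 2. Between ODD and EVEN it was 1, and 0 to 3 elsewhere: 3 without a trend, 2 with all hairpin rows, and 0 with the replicate block, among others. With that block, where the scrambled library shares its number, 12, with ODD and EVEN replicates 3, 0 members passed in either comparison, and miR-619-5p against scrambled moved from 0.095 to 0.57 (limma, SE 0.31, adjusted p = 0.496), its highest value. RPM over 1 row per name raised the members' share in all 7 libraries, to 0.841%, 0.740% and 0.952% in ODD replicates 1 to 3, 0.637%, 0.415% and 0.823% in the EVEN ones, and 0.862% with scrambled probes. edgeR, DESeq2 and TMM scaling were not run. The scrambled library is single and cannot be left out of its own comparison, and 1 read there is worth 215 RPM, which limits every low member.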

Other observations

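Hairpin arms differed among the members. miR-1273g-3p had 67 reads against 5 for miR-1273g-5p and was the higher arm in 7 of 7 libraries, whereas miR-1285-3p, on the hairpin row used, had 16 reads against 40 for miR-1285-5p and was the lower arm in 6 of 7, with both at 0 in EVEN replicate 3. With the reads of both its rows added, miR-1285-3p had 24 reads and was lower in 4 libraries, higher in 1 (EVEN replicate 1) and equal in 2. The mature sequence of miR-1285-3p is the same from both of its hairpins, yet the rows of those hairpins held 16 and 8 reads. The 2 rows of miR-1254 held 5 and 4 reads. The profile of miR-1273g-3p lay nearest to those of miR-16-5p, miR-30e-5p and miR-99b-5p, with root mean square differences of 0.34, 0.36 and 0.37 in centred log2(RPM + 10) over the 7 libraries, against a median of 0.70 over 95 names.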
